A study of Mus musculus with 52 samples.

Results

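The hippocampal RNA libraries of a mouse insulin clamp study differed widely in transcripts of the choroid plexus, the tissue inside the brain ventricles that makes cerebrospinal fluid. The 18 hippocampal libraries were ranked by the level of Ttr, and the 6 highest, called rich, were set against the 6 lowest, called poor, so 12 of the 52 libraries of the study enter the comparison. A level here is the CPM, the count of a gene divided by the total count of its library and multiplied by 1000000. The ranking used Ttr as measured in these same libraries, so every difference between rich and poor below describes the libraries that were chosen and is not a test.

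All mice were 3-month-old C57BL/6J males, and each received a 3 h infusion through a jugular catheter while conscious, with glucose given to hold blood glucose. The infusions were saline (basal, 0 mU/kg/min insulin), insulin at 4 mU/kg/min (low) and insulin at 12 mU/kg/min (high), with 6 hippocampal libraries each. The labels name no altered allele and no agent besides insulin, saline and glucose, and they do not say which libraries share an animal, so spread between libraries may be partly technical. The rich group holds 0 basal, 4 low and 2 high libraries, and the poor group holds 3 basal, 2 low and 1 high libraries. The 6 libraries between them, called middle, are 3 basal and 3 high. Library numbers such as low 5 follow the order of the samples in the archive and mean nothing across groups.

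The choroid plexus is a folded sheet of epithelial cells over a core of fibroblasts, vessels and macrophages, and it hangs in the ventricles next to the ciliated ependymal cells that line them. Its epithelium secretes transthyretin, the product of Ttr, which carries thyroid hormone and retinol, and it moves ions and water from blood to cerebrospinal fluid. Folr1 encodes the folate receptor that carries folate across this epithelium, and Kcnj13 encodes the potassium channel Kir7.1 of its ventricular surface. The plexus of the lateral ventricle lies against the hippocampus along the fimbria, so a dissected hippocampus can hold more or less of it. In such bulk tissue, fewer cells of a type and less RNA per cell cannot be told apart.

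Ttr was 1725 CPM in high 5, 2004 in low 1, 2004 in low 2, 2261 in low 5, 2477 in high 3 and 5495 in low 6, the rich libraries. In the poor libraries it was 11.9 CPM in high 6, 16.1 in basal 3, 20.0 in basal 5, 21.1 in low 4, 21.4 in basal 2 and 33.2 in low 3. The middle libraries ran from 101 to 1214 CPM. The members nearest the boundaries were therefore high 5 at 1725 CPM against 1214 CPM just outside the rich group, and low 3 at 33.2 CPM against 101 CPM just outside the poor group. Ttr alone took between 0.172% and 0.549% of all counts in the rich libraries, against 0.00119% to 0.00332% in the poor ones. The fitted difference was 6.93 on the log2 scale (SE 0.45), which only restates how the groups were made.

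The label of a choroid plexus difference held for the other markers named with it. Folr1 was lowest at 13.3, median 28.4 and highest at 64.7 CPM in the rich libraries, against 0.219, 0.551 and 0.887 CPM in the poor libraries. Kcnj13 was lowest at 4.20, median 6.10 and highest at 12.2 CPM in the rich libraries, against 0, 0.110 and 0.263 CPM in the poor libraries, where it totalled 3 counts. Every rich library was above every poor library for both genes. The ratio of pooled levels for Kcnj13 was 67.6, with an exact 95% interval of 22.8 to 330.3 that covers counting error only. The given tissue label also held in both groups: the summed level of Neurod6, Slc17a7, Camk2a and Zbtb20, genes of hippocampal excitatory neurons, was 4260 to 7026 CPM in the rich libraries and 6605 to 7239 CPM in the poor ones.

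**Figure D1:**
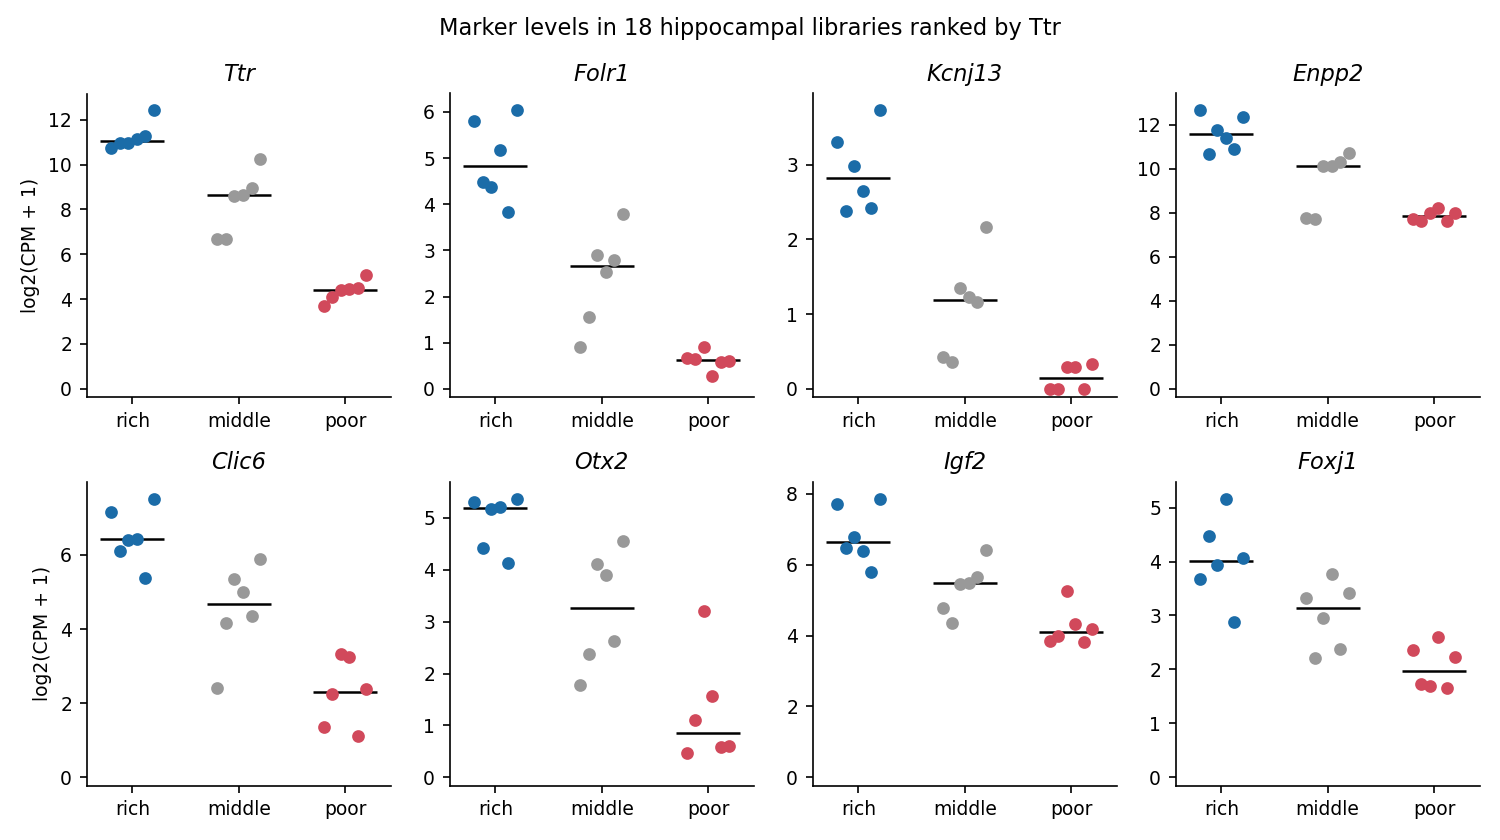
Levels of 8 genes in the 18 hippocampal libraries as log2(CPM + 1), 1 point per library in order of Ttr within each group, with the group median as a line. For Ttr, which chose the groups, and for Folr1, Kcnj13, Enpp2, Clic6, Otx2, Igf2 and Foxj1 the 6 rich libraries are all above the 6 poor libraries, and many middle libraries lie between.

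Total counts ranged from 3450400 to 6219377 in the rich libraries and from 3478918 to 6038216 in the poor libraries. Titles carry tag numbers that fall in 3 ranges, from lowest to highest holding 1, 2 and 3 rich libraries and 0, 3 and 3 poor libraries. A lean to GC-rich transcripts, taken as a correlation above 0.4 of GC content with a library's deviation from its tissue, was found in 2 rich libraries, low 1 and low 5, and in 0 poor ones.

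Among 14272 genes other than Ttr, fitted in edgeR with infusion as a term, 136 were higher in the rich libraries at an adjusted p under 0.05, which is 0.953% of the genes, and 1 was lower, which is 0.00701%. A further reading was the number of genes with every rich library above every poor one: 326 genes, or 2.28%. The reverse held for 21 genes, or 0.147%. Of the 136 higher genes, 135 are protein-coding, 31 are on a list of choroid plexus epithelial genes and 97 are on none of the 24 gene lists used. Their log2 fold changes ran from 1.01 to 8.23 with a median of 2.64, against a median of 0.01 over all genes tested. The count of called genes fell to 42, 46 and 53 when low 3, low 4 or high 6 of the poor group was left out, and it was 59 within the middle and 91 within the highest tag range, where infusion was not a term. It was 297 with no infusion term and 230 in DESeq2. The rich group holds no basal library, so with infusion as a term the 3 basal poor libraries carry no weight in the fitted difference. Each log2 fold change of that fit rests on 4 low against 2 low and 2 high against 1 high libraries, while CPM ranges cover all 6 poor libraries. Without the basal libraries, a fit chosen after seeing the data, 124 genes were called and the choroid plexus median was 3.21.

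The choroid plexus list has 44 members besides Ttr. A filter on low counts passed 42 of them, many through the rich libraries alone, so the counts that follow are a description. Slco1a5, an organic anion transporter, and Cldn3, a claudin, did not pass, with 34 and 29 counts in the rich libraries against 2 and 4 in the poor ones. Of the 42, 31 were called higher and 0 lower, and the median log2 fold change was 3.20. In 36 of all 44 members every rich library lay above every poor one, beside 2.28% of all genes tested. Leaving out any of the 12 libraries gave between 21 and 35 called, and 26 and 30 were called within the middle and the highest tag range. With runs of neighbouring tag numbers as a replicate block, which leaves 3 residual degrees of freedom, 1 choroid plexus member of 44 tested and 2 genes in all were called, and the choroid plexus median was 3.36.

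**Figure D2:**
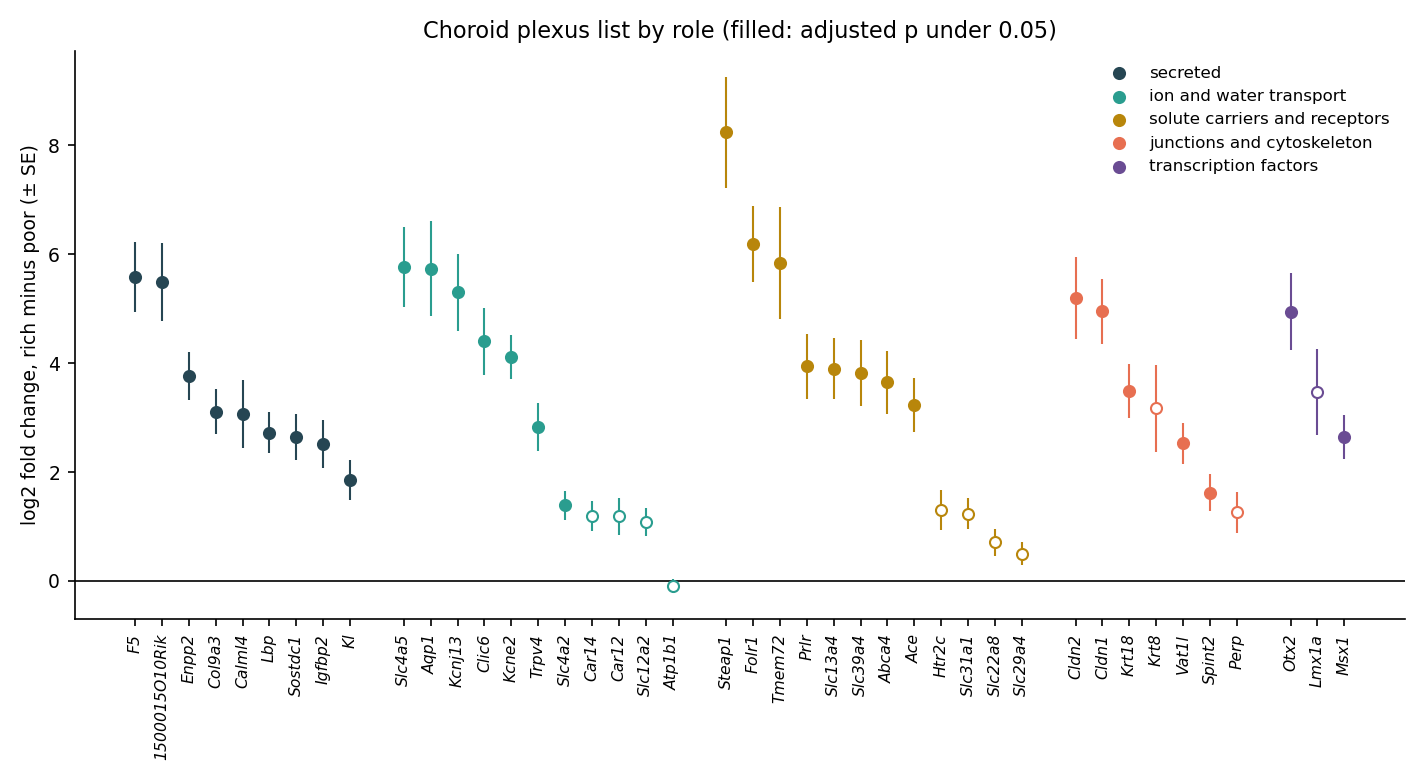
Log2 fold change of rich minus poor (vertical axis, bars are ± 1 SE) for the 42 choroid plexus members that passed the filter, grouped by role, with filled points for those at an adjusted p under 0.05. Steap1, Folr1, Tmem72, Slc4a5 and Aqp1 are at the top, and Atp1b1 alone is below 0.

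All 9 members grouped as secreted were called higher, with a median log2 fold change of 3.06. The group is named for its main kind and also holds Calml4, a calmodulin-like protein. Enpp2, which encodes autotaxin, the secreted enzyme that makes lysophosphatidic acid, was lowest at 1621, median 3072 and highest at 6513 CPM in the rich libraries, against 196, 232 and 298 CPM in the poor libraries, a log2 fold change of 3.76 (SE 0.44). The groups did not overlap, and the rise in CPM was the largest of the list. F5, coagulation factor V, was 34.7, 63.2 and 143 CPM in the rich libraries, against 0.586, 1.83 and 2.19 CPM in the poor libraries, a log2 fold change of 5.59 (SE 0.64). 1500015O10Rik, also called Ecrg4, which encodes the precursor of augurin, was 9.27, 28.5 and 43.8 CPM in the rich libraries and 0, 0.581 and 1.11 CPM in the poor libraries. Kl, the klotho co-receptor for fibroblast growth factor 23, had the smallest change of the group, with 92.7, 155 and 307 CPM in the rich libraries against 38.6, 41.5 and 52.6 CPM in the poor libraries. The log2 fold changes of Igfbp2, a binding protein for insulin-like growth factors, Lbp, the lipopolysaccharide-binding protein, and Sostdc1, a secreted antagonist of BMP and Wnt signals, lay between 2.52 and 2.73, and Calml4 and Col9a3, a collagen IX chain, were at 3.06 and 3.10.

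Of 11 genes for ion and water transport, 7 were called higher. Slc4a5, a sodium bicarbonate cotransporter, was lowest at 27.9, median 48.1 and highest at 116 CPM in the rich libraries, against 0.331, 1.09 and 3.10 CPM in the poor libraries, a log2 fold change of 5.76 (SE 0.73). Aqp1, the water channel of the ventricular surface, was 8.98, 18.1 and 50.4 CPM in the rich libraries and 0, 0.419 and 1.16 CPM in the poor libraries. Clic6, a chloride intracellular channel protein, was 40.3, 84.8 and 182 CPM in the rich libraries and 1.16, 3.97 and 9.09 CPM in the poor libraries. None of these groups overlapped. Kcne2, a potassium channel subunit, Trpv4, a calcium-permeable channel, and Slc4a2, an anion exchanger, were the others called besides Kcnj13, with log2 fold changes of 4.11, 2.83 and 1.39. Slc12a2, the sodium potassium chloride cotransporter NKCC1, and the carbonic anhydrase genes Car12 and Car14 were not called, at 1.09, 1.18 and 1.19. Those 3 genes were already at medians of 61.1, 27.4 and 8.89 CPM in the poor libraries. Atp1b1, a subunit of the sodium pump that neurons also use, was 1525, 1651 and 1851 CPM in the rich libraries against 1574, 1820 and 1910 CPM in the poor ones, and the groups overlapped.

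Among the solute carriers and receptors 8 of the 12 members that passed the filter, of 13 in all, were called higher, with a median log2 fold change of 3.73. Folr1 had the largest fitted change of any gene with a mean of at least 5 CPM, 6.19 (SE 0.70). Steap1, of a family of metalloreductases, had 250 counts in the rich libraries and 1 in the poor ones, a ratio of 229 with a counting interval of 40.8 to 9097. Tmem72, a transmembrane protein, had 325 counts in the rich libraries and 3 in the poor ones, a ratio of 99.4 with an interval of 33.7 to 485. Prlr, the prolactin receptor, was 29.6, 51.9 and 158 CPM in the rich libraries, against 2.82, 3.78 and 5.92 CPM in the poor libraries. Ace, angiotensin-converting enzyme, was 31.6, 68.3 and 177 CPM in the rich libraries, against 6.62, 7.96 and 11.2 CPM in the poor libraries. Abca4, a retinoid transporter known from photoreceptors, Slc13a4, a sulphate carrier, and Slc39a4, a zinc importer, changed by 3.65, 3.90 and 3.82 on the log2 scale. Htr2c, the serotonin 2C receptor that neurons also express, was not called: it was 39.7, 76.3 and 127 CPM in the rich libraries and 25.3, 30.3 and 43.2 CPM in the poor ones, with overlap. Slc31a1, Slc22a8 and Slc29a4, importers of copper, organic anions and monoamines, were not called either, at 1.24, 0.71 and 0.50.

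Of the junction and cytoskeletal members 5 of the 7 that passed the filter, of 8 in all, were called higher, with a median of 3.17. Cldn2, a claudin of leaky tight junctions, was lowest at 8.40, median 26.8 and highest at 60.3 CPM in the rich libraries, against 0.287, 0.664 and 1.32 CPM in the poor libraries, a log2 fold change of 5.19 (SE 0.76). Cldn1, another claudin, was 11.9, 16.9 and 37.9 CPM in the rich libraries and 0.391, 0.731 and 1.10 CPM in the poor ones. Krt18, an epithelial keratin, and Spint2, a protease inhibitor, were also called, at 3.49 and 1.62, as was Vat1l at 2.53. Krt8, the partner keratin of Krt18, was not called, at 3.17 (SE 0.80), though its 6 rich libraries were all above the 6 poor ones. Perp, a desmosomal protein, was not called at 1.26.

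Otx2, the homeodomain factor that choroid plexus needs to form, was lowest at 16.5, median 35.7 and highest at 40.3 CPM in the rich libraries, against 0.391, 0.838 and 8.20 CPM in the poor libraries, a log2 fold change of 4.94 (SE 0.70). The poor value of 8.20 came from basal 5, and the other 5 poor libraries were at most 1.97 CPM. Msx1, a homeobox factor of the dorsal midline, was called at 2.65, and Lmx1a, another, was not, at 3.47 (SE 0.80). OTX factors bind the core TAATCC, read on either strand as TAATCC or GGATTA. In RefSeq promoters of build GRCm38.p6 this core lay in the 250 bases before the start of 7.21% of 26734 genes, of 13 of the 103 higher genes with a promoter in the table (12.6%), and of 4 of the 23 higher choroid plexus members with one (17.4%). A gene counts, here and for the motif further below, if any of its annotated starts has a match, and 6.25% of the 32536 promoters hold this core. The Otx2 stretch is promoter 3 of that gene, and its promoters without the core are not shown. A match is a description of letters and not a site shown to be bound. The 4 promoters with a match are shown because their genes were called higher together with Otx2 or are Otx2 itself, and that of the channel Kcnj13 is shown as a marker without one; capitals mark the core.
Abca4, chr3:122044210-122044459, plus strand: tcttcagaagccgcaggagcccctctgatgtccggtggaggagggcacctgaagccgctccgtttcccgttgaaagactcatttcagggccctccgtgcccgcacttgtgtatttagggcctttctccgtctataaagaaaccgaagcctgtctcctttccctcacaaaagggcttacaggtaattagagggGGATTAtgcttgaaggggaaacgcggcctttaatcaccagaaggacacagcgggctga
Ace, chr11:105967698-105967947, plus strand: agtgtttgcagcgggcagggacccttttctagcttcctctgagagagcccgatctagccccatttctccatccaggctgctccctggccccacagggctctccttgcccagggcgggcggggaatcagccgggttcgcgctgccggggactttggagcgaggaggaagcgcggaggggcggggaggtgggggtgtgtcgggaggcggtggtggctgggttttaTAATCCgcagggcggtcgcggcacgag
Otx2, chr14:48665110-48665359, minus strand: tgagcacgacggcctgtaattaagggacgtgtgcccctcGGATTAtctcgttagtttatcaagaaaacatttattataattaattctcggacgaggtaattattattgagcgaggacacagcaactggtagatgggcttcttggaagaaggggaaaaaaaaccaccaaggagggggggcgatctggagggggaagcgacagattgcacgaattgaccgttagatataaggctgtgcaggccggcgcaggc
Vat1l, chr8:114205390-114205639, plus strand: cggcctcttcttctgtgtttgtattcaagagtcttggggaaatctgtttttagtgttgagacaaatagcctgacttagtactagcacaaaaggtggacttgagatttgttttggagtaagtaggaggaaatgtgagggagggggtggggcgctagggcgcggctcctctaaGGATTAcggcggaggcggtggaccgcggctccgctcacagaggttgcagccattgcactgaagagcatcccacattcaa
Kcnj13, chr1:87394730-87394979, minus strand: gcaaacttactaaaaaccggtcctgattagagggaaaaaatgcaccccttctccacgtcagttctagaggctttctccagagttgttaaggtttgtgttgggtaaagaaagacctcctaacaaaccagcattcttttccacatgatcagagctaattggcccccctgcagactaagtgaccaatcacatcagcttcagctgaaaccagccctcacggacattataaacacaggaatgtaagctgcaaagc
Each stretch ends at the annotated start, and the core began 58, 27, 211 and 79 bases before it in Abca4, Ace, Otx2 and Vat1l. The half-site GTTGCC of RFX factors, which act on ciliary genes, was searched on both strands in the same windows, GGCAAC being its complement. It lay in 11.7% of all genes, 19.4% of the matched higher genes and 21.7% of the matched choroid plexus members, the last being Aqp1, Kcne2, Otx2, Slc4a2 and Steap1. The 2 motifs share no core.

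Genes outside the list stood among the largest changes. Col8a1 and Col8a2, both chains of collagen VIII, had medians of 19.8 and 19.5 CPM in the rich libraries, against 0.762 and 0.859 CPM in the poor libraries. Wdr86, a WD-repeat protein, had 20.3 CPM in the rich libraries against 0.429 CPM in the poor ones, and Mfrp, a membrane frizzled-related protein of eye development, had 17.8 CPM in the rich libraries against 0.856 CPM in the poor ones. Wfikkn2, a secreted protease-inhibitor-like protein that binds growth differentiation factors, was lowest at 15.1, median 24.3 and highest at 35.3 CPM in the rich libraries, against 0.263, 1.05 and 1.15 CPM in the poor libraries, with a log2 fold change of 5.07 and the small SE of 0.36. In all of these the 6 rich libraries lay above the 6 poor ones. Over the 18 hippocampal libraries, the 10 of 11468 genes whose log2(CPM + 1) followed that of Ttr most closely were Wdr86 (Pearson correlation 0.96), Folr1, Wfikkn2, Cldn1, F5, 1500015O10Rik, Enpp2, Col8a2, Slc4a5 and Clic6 (0.93). Libraries share depth and composition, so these correlations are given as a description of likeness.

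The choroid genes did not keep 1 ratio to Ttr across the rich libraries. Folr1 was 32.0 per 1000 of Ttr in high 5 and 5.38 per 1000 in high 3, and 9.87 to 15.6 per 1000 in the other 4. The Enpp2 level above the poor mean was 3.64 times Ttr in high 5 and 0.668 times Ttr in high 3. High 5 had the lowest Ttr of the rich libraries, but its summed choroid plexus list without Atp1b1 was the highest, at 8895 CPM. Low 6 with the highest Ttr followed at 7811 CPM. That order rested on Enpp2: with Enpp2 left out and Atp1b1 kept, the sum was 3991 CPM in high 5 and 4103 CPM in low 6. Without Atp1b1, the sum of the 43 other genes was 2686 to 8895 CPM in the rich libraries. It was 573 to 2646 CPM in the middle ones and 504 to 651 CPM in the poor ones. In the other tissues this sum was 823 to 1258 CPM in the nucleus accumbens and 1027 to 1505 CPM in the hypothalamus. Median Ttr there was 2.40 and 8.63 CPM, against 20.5 CPM in the poor libraries, while Enpp2 alone had means of 228 and 295 CPM. Across tissues the sum therefore does not rank the amount of choroid plexus.

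Genes of other cells of the plexus and the ventricle wall were also read from lists. Of 15 stromal and meningeal fibroblast genes tested, of 16, 4 were called higher and all 15 were above 0, with a median log2 fold change of 1.67, beside 0.953% of all genes called higher and a median of 0.01. The 4 calls became 2 without low 3, low 4 or high 6, and 1 with a median of 0.93 when the libraries were grouped by Folr1 in place of Ttr. With the block of tag runs, 0 stromal and 0 ependymal genes were called. Igf2, a growth factor of these cells, was lowest at 54.8, median 98.6 and highest at 232 CPM in the rich libraries, against 13.2, 16.2 and 37.0 CPM in the poor libraries. Dcn, which encodes the matrix protein decorin, was 15.1, 17.3 and 25.2 CPM in the rich libraries, against 1.76, 4.00 and 12.9 CPM in the poor libraries, and basal 5 gave the highest poor value of both genes. Col1a2, a collagen I chain, and Slc6a13, a GABA transporter of the leptomeninges, were called at 2.36 and 2.38. Foxc1, a fibroblast and mural transcription factor, was not called at 0.92. With no infusion term, the stromal median was 0.84 with 3 calls within the middle tag range and 1.17 with 1 call within the highest.

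Of 11 ependymal genes tested, of 14, Foxj1 was called, and all 11 were above 0 with a median of 1.88, beside the same 0.953% and 0.01 over all genes. That call was lost without low 3 or low 4, within either tag range and when libraries were grouped by Folr1, which each left 0 ependymal calls. Foxj1, the master regulator of motile cilia, was lowest at 6.38, median 15.1 and highest at 34.9 CPM in the rich libraries, against 2.15, 2.99 and 5.05 CPM in the poor libraries, a log2 fold change of 1.86 (SE 0.35). Ak7, an adenylate kinase of cilia, was 7.25, 11.0 and 18.0 CPM in the rich libraries and 0, 1.66 and 4.10 CPM in the poor ones, without a call. Mia, a further ependymal gene, had 0 counts in every poor library. The ependymal sum was highest in low 5, at 133 CPM, and 31.3 to 69.6 CPM in the other rich libraries, against 5.96 to 21.7 CPM in the poor ones. Of 10 markers of border macrophages 5 were tested and 0 were called by edgeR and 2 by DESeq2, with a median of 2.27. The median of these few genes was 1.23 when grouped by Folr1, 1.18 over 3 genes within the highest tag range and 1.49 for the 1 gene tested without infusion as a term. Cd74, the invariant chain of antigen presentation, was 0.869 to 6.13 CPM in the rich libraries and 0 to 0.662 CPM in the poor ones, and Pf4 and Clec12a were at 0 in every poor library.

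**Figure D3:**
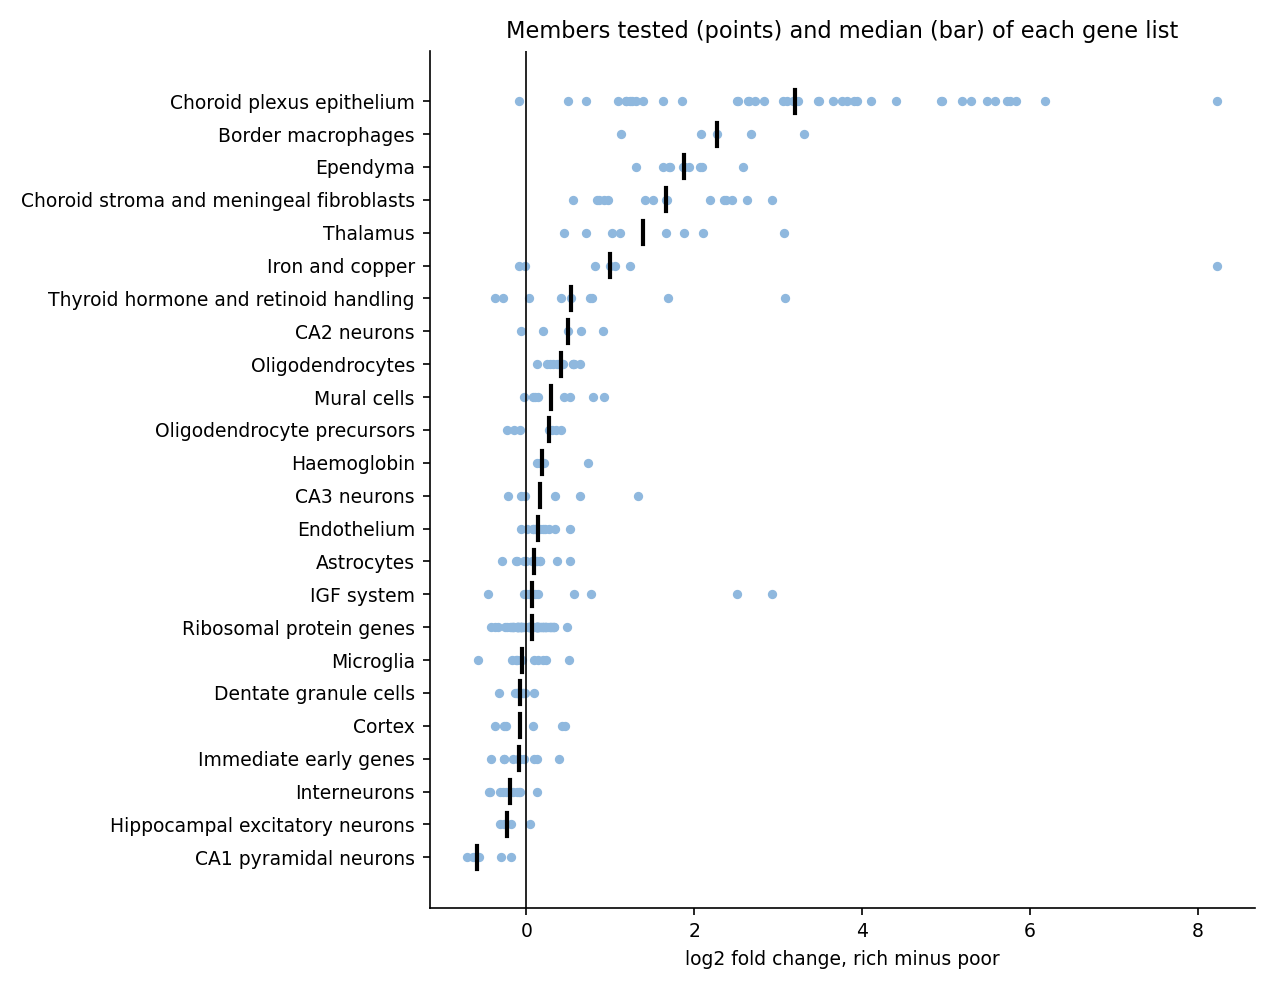
Log2 fold change of rich minus poor (horizontal axis) for the tested members of 24 gene lists, 1 point per gene with the list median as a bar, sorted by median. The choroid plexus median is 3.20, border macrophages, ependyma, stroma and thalamus follow between 2.27 and 1.39, and CA1 pyramidal neurons are lowest at -0.58.

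The resident cells of the hippocampus gave 0 calls in the main fit, but some other fits gave single calls. In DESeq2, and with no filter on low counts, 1 CA3 gene was called higher and 1 CA1 gene lower. Without infusion as a term 1 CA2 and 1 CA3 gene were called higher. Values that follow are from the main fit. Microglia, endothelium, mural cells, astrocytes, oligodendrocyte precursors, CA2 and CA3 neurons, dentate granule cells and cortex had medians between -0.08 and 0.49 on the log2 scale, with the background of 0.96% of genes called in either direction. CA1 pyramidal genes had a median of -0.58, and all 6 were below 0. Wfs1, a CA1 marker that encodes wolframin, was lowest at 120, median 205 and highest at 252 CPM in the rich libraries, against 132, 254 and 350 CPM in the poor libraries, with overlap. Interneuron genes had a median of -0.20, and Gad1, which encodes the enzyme that makes GABA, was 243 to 313 CPM in the rich libraries and 322 to 373 CPM in the poor ones, without overlap and without a call. Immediate early genes had a median of -0.09. Ribosomal protein genes had a median of 0.06, and haemoglobin genes 0.19.

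Some rich libraries also stood apart in tissue that is not choroid plexus. The 13 oligodendrocyte genes summed to 19486 CPM in low 5 and to 5593 to 8965 CPM in the other rich libraries, against 2799 to 6465 CPM in the poor ones. None of the 13 was called, and their median log2 fold change was 0.41. That median was 0.18 without low 5, 0.27 without low 3 and 0.74 without high 6. It was 0.22 without both GC-leaning libraries. It was 0.73 without infusion as a term, and 0.73 within the middle and 0.80 within the highest tag range. In low 5 the sum of hippocampal excitatory genes, 4260 CPM, and that of dentate granule genes, 416 CPM, were the lowest of the rich group. The thalamic list, genes of the nuclei that lie beneath the hippocampus, had a median of 1.39 with 1 of 8 called. Its sum was 953 CPM in low 2 and 138 to 526 CPM in the other rich libraries, against 107 to 285 CPM in the poor libraries. Zic1, a zinc-finger factor of thalamus, meninges and choroid plexus stroma, was the called member: it was 20.3, 69.9 and 214 CPM in the rich libraries and 6.25, 9.11 and 49.7 CPM in the poor ones, with overlap through basal 5. It was called in 6 of the 12 fits that each left out 1 library, and lost its call without low 2, low 3, low 4, low 5, high 5 or high 6. It was also not called within either tag range. The thalamic median was 0.96 without low 2, and 2.15 within the middle but 0.42 within the highest tag range. The choroid plexus median was 3.06 within the middle and 3.43 within the highest tag range, and the part of these other tissues in the choroid differences was not tested.

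**Figure D4:**
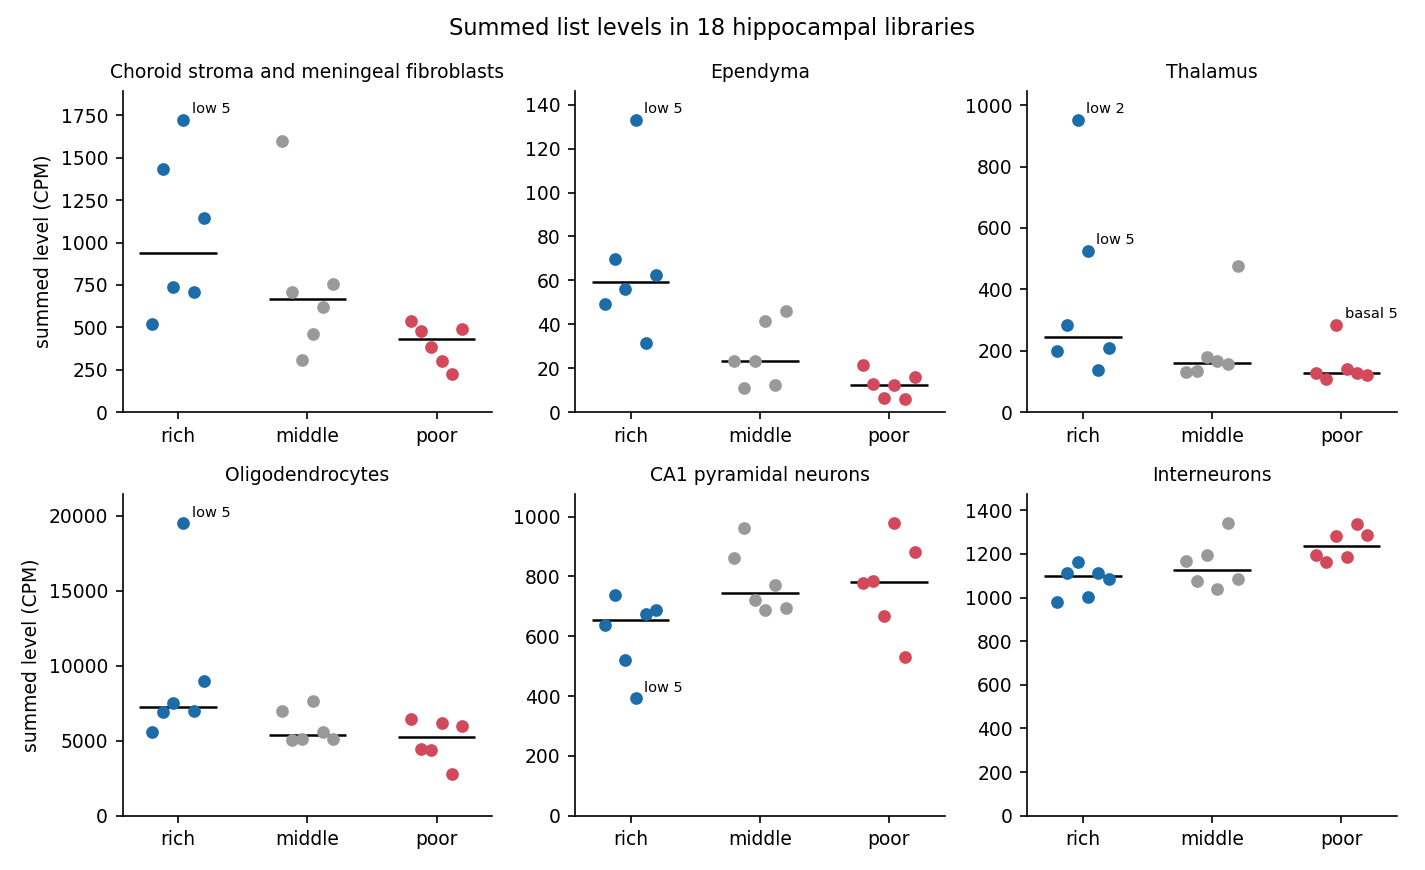
Summed levels (CPM) of 6 lists in the 18 hippocampal libraries, 1 point per library in order of Ttr within each group, with the group median as a line. Low 5 stands at 19486 CPM for oligodendrocyte genes, and low 2 at 953 CPM for thalamic genes.

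Systems in which the plexus takes part were read from further lists. Of 9 genes for thyroid hormone and retinoid handling tested, of 11, 2 were called higher, against the background of 0.953%. Rdh5, a retinol dehydrogenase, was lowest at 8.69, median 18.9 and highest at 32.8 CPM in the rich libraries, against 0.497, 1.67 and 3.29 CPM in the poor libraries. Dio2, the deiodinase that activates thyroid hormone in glia, was not called: it was 82.0 to 102 CPM in the rich libraries and 97.4 to 143 CPM in the poor ones, a log2 fold change of -0.38 (SE 0.15). In the insulin-like growth factor system Igf2 and Igfbp2 were called of 13 genes. Igf1, Igf1r, Insr, Irs1 and Irs2, the second ligand, the receptors and their substrates, were not called, with log2 fold changes between -0.46 and 0.10. In the iron and copper list Steap1 was called of 7 genes. For both lists the background is the same 0.953%. Steap1 and Igfbp2 are also choroid plexus members and Igf2 is also on the stromal list, so these calls repeat those given above. Lefty1, an antagonist of nodal signalling and the 1 gene called lower, was lowest at 12.5, median 16.6 and highest at 20.3 CPM in the rich libraries, against 11.3, 26.2 and 36.6 CPM in the poor libraries, with overlap and a log2 fold change of -1.13 (SE 0.22).

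Whether the same genes follow Ttr elsewhere was tested in libraries that the ranking did not use. The nucleus accumbens has 18 libraries, 6 per infusion, and the hypothalamus 16, with 5 basal, 6 low and 5 high. Ttr was 0.276 to 18.5 CPM in the nucleus accumbens and 1.14 to 28.0 CPM in the hypothalamus, below the highest poor hippocampal library at 33.2 CPM. Folr1 reached 1.50 and 1.88 CPM there, and Kcnj13 0.434 and 0.807 CPM, and neither gene passed the filter of these fits. Levels this low rest on few counts, so the fits could show little of the signature, and few or no calls decide little. In each tissue a slope on log2(Ttr CPM + 1) was fitted with infusion as a term, so a slope is a change in log2 level per doubling of that quantity.

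In the nucleus accumbens 0 of 14585 genes were called in edgeR, 0.0% of those tested, with 298 at an unadjusted p under 0.05 and 0 called by DESeq2. None of the 25 choroid plexus members tested was called. Enpp2 had a slope of -0.00 (SE 0.05) and Clic6 of -0.08 (SE 0.08), both with an edgeR adjusted p of 1.00. Of the 136 genes higher in rich hippocampal libraries, 98 were tested and 0 were called, with 48 above 0.

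In the hypothalamus 1184 of 14551 genes had a positive slope at an adjusted p under 0.05, or 8.14%, and 578 a negative one, or 3.97%. Of 28 choroid plexus members tested there, 2 were called with a positive slope and 2 with a negative one. Igfbp2 rose with Ttr by 0.74 (SE 0.12, edgeR adjusted p = 0.00416) and Lmx1a by 0.90 (SE 0.21, edgeR adjusted p = 0.0146). Prlr fell by 0.32 (SE 0.08, edgeR adjusted p = 0.0141) and Clic6 fell by 0.21 (SE 0.06, edgeR adjusted p = 0.036). Enpp2, with the largest rise in CPM in the rich hippocampal libraries, had a slope of 0.03 (SE 0.06, edgeR adjusted p = 0.805). Of 106 rich-higher genes tested, 4 were called with a positive slope (among them Cdkn1c, Epn3 and Igfbp2) and 5 with a negative one (Clic6, Dnah6, Prlr, Six3os1 and Ttc21a). Six3os1 is antisense to Six3, and without the strand setting of the counting the 2 cannot be told apart.

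The largest positive hypothalamic slopes belonged to genes outside the list. They were Chrnb3, a nicotinic receptor subunit (1.46, SE 0.43), Romo1, a mitochondrial membrane protein (1.10, SE 0.19), Slc17a7, a vesicular glutamate transporter (1.08, SE 0.26), Rpl41, a ribosomal protein (1.01, SE 0.20), and Gucy2c, a guanylate cyclase receptor (0.97, SE 0.29). The largest negative ones were Slc5a7, the choline transporter (-1.26, SE 0.18), Lhx6, a factor of forebrain interneurons (-0.76, SE 0.14), and Drd1, the D1 dopamine receptor (-0.56, SE 0.12). All 8 passed an edgeR adjusted p under 0.05, the largest being 0.0421. By list, 56 of 70 ribosomal protein genes, 7 of 13 oligodendrocyte genes and 3 of 4 haemoglobin genes had a called positive slope, beside 8.14% of all genes. Among 10 interneuron genes 6 had a called negative slope and 1 a positive one, beside 3.97% of all genes called negative. Without basal 5, the hypothalamic library with the highest Ttr, the count of called genes was 74, and Romo1, Slc17a7 and Rpl41 lost their call. Without high 3 Lhx6 and Drd1 lost theirs. Of 16 fits that each left out 1 hypothalamic library, Chrnb3 was called in 6 and Gucy2c in 5, with the largest adjusted p of both without low 4 (0.114 and 0.0972 by edgeR), and the other 6 genes were called in 14 to 16. Ttr rank there went with a library's lean to GC-rich transcripts (Spearman 0.42 over 16 libraries) and against its total count (Spearman -0.56), and the part of either was not tested. The difference of the slopes, hypothalamus minus nucleus accumbens, was called for 1 of 15321 genes, 0.00653%, with the lower slope in the hypothalamus.

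**Figure D5:**
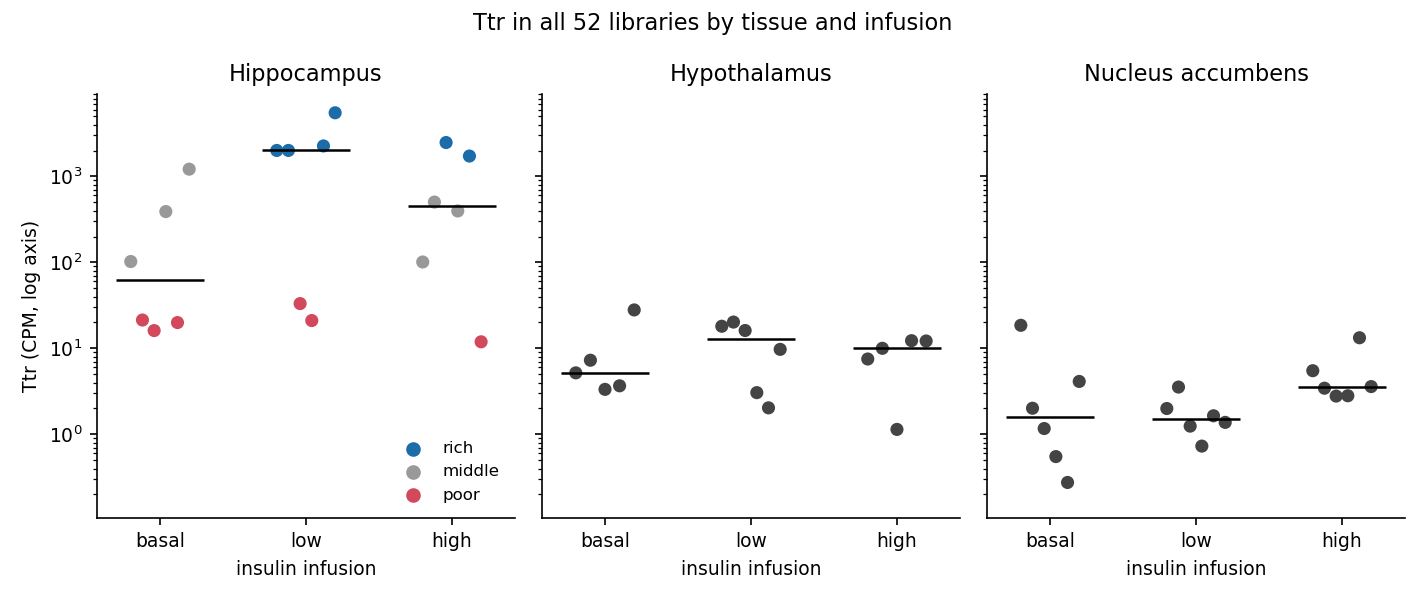
Ttr (CPM, log axis) in the 52 libraries by tissue and insulin infusion, 1 point per library with the median as a line, colours marking the rich, middle and poor hippocampal libraries. Hippocampal values span 11.9 to 5495 CPM, and those of the hypothalamus and nucleus accumbens stay at or below 28.0 CPM.

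The insulin groups were also compared in all 18 hippocampal libraries, since the rich group lacks basal libraries. In low against basal 0 of 13515 genes were called in edgeR, 0.0%, with 817 at an unadjusted p under 0.05, and in high against basal 0 were called, 0.0%, with 353. DESeq2 called 38 genes in low against basal and 0 in high against basal. The 38, of 13515 genes tested, include 0 of 40 choroid plexus members and 4 of 13 oligodendrocyte genes, among them Mal, Mbp and Mobp. The low group holds low 5, where the oligodendrocyte genes summed to 19486 CPM, and its part in these calls was not tested. Ttr was lowest at 16.1, median 61.8 and highest at 1214 CPM in the basal group, 21.1, 2004 and 5495 CPM in the low group, and 11.9, 449.6 and 2477 CPM in the high group. All 3 groups overlapped. The log2 fold change of Ttr was 2.72 (SE 1.34, edgeR adjusted p = 0.83) for low minus basal and 1.61 (SE 1.29, edgeR adjusted p = 1.00) for high minus basal. For low minus basal, that of Folr1 was 2.56 (SE 1.09, edgeR adjusted p = 0.765) and that of Kcnj13 was 2.32 (SE 0.96, edgeR adjusted p = 0.748).

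The choroid plexus list had a median log2 fold change of 1.64 for low minus basal and 0.97 for high minus basal, with 0 of 40 members called in either, against medians of -0.01 and 0.00 over all genes. With log2 Ttr as a term the list medians were 0.06 and 0.10. That term takes up what the list shares with Ttr in the same libraries, so this drop was built in and decides nothing about insulin. Without high 5 the high minus basal median was 0.19. An effect of insulin on these genes and a difference in tissue collected cannot be told apart.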

How the data were processed

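The authors deposited 1 table of counts of reads per Ensembl gene without normalisation, made from stranded libraries sequenced in pairs. The submitters' processing notes name STAR, featureCounts and the mouse build GRCm38.p4. Their versions, the strand option and the annotation release, not given in the sources used here, could change counts. Reads shared by overlapping or near-identical genes may be split or lost, and PCR copies may be counted. Of 46071 genes 45143 were named from GENCODE; the 928 others hold 0.127% of counts. Total counts per library ranged from 2453412 to 8279612, which limits genes of few counts.

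Differences came from edgeR 4.0.16 in R 4.3.3 with TMM factors, filterByExpr, a robust quasi-likelihood test and infusion as a term. P-values are 2-sided with Benjamini-Hochberg adjustment across the whole table tested, and an adjusted p under 0.05 makes a call. Each SE was worked back from that test, as the absolute log2 fold change or slope divided by the square root of its F statistic. It is thus an approximate SE. Slopes on log2(Ttr CPM + 1) and their difference between tissues used the same model. In rich minus poor and in the slopes, Ttr was fitted with the other genes but left out of the edgeR adjustment and the counts. Steps were tested on simulated counts. Alternatives were DESeq2 1.42.0 and its size factors, no filter, other covariates, other markers, and leaving out each library.

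Members and lists were chosen with earlier results of these data known. Named are, for rich minus poor, the 12 highest and up to 8 lowest called genes of mean CPM 5 or more, up to 4 members of each list at that level and the markers; per tissue 5 positive and 3 negative called slopes; and the 10 genes most like Ttr. Other members were named after their values were seen. Some genes that the rule takes are not reported here.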

Additional observations from a re-analysis of the deposited data

Results flagged for a closer look

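In each group of 6 libraries, named genes and list sums were checked for a library far from the other 5, with a gap of more than 0.625 of the whole range. Of 248 values checked 35 passed this limit, and chance flags about 1 group in 20. Values are in CPM.

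Most flags among the rich libraries belong to low 5. In it the oligodendrocyte list summed to 19486, with Mbp, myelin basic protein, at 9611, Mag, the myelin-associated glycoprotein, at 411 and the lineage factor Olig1 at 199.5. The complement genes C1qa and C1qc of microglia stood at 49.9 and 34.9, the glucose transporter gene Slc2a1 of vessels at 454, and the ribosomal gene Rps2 at 507. The haemoglobin list summed to 59.8, with Hbb-bs at 26.4 and Hba-a1 at 18.6. Trf, the transferrin gene, was 27.3, and Igfbp6 30.0. Without low 5 the count of called genes was 141 and the choroid plexus median 3.21, against 137 and 3.20 with it. In low 2 the thalamic genes Tcf7l2, at 158, and Synpo2, at 44.7, were far above the others. Ttr itself was highest in low 6, at 5495, and Itm2a, an endothelial gene, was lowest in high 3, at 13.6.

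Most flags among the poor libraries belong to basal 5, the library with the highest poor value of each gene that follows. Otx2 was 8.20, Igf2 37.0, Dcn 12.9, Col1a2 7.09, Vtn, a mural gene, 41.2 and Cp, which encodes the copper carrier ceruloplasmin, 30.4. The thalamic list summed to 285, with Zic1 at 49.7, Tcf7l2 at 31.9, Calb2, the calretinin gene, at 27.7 and Synpo2 at 14.2, and the border macrophage list summed to 12.9. Ttr was 20.0 in basal 5, within the range of the other poor libraries. In high 6 the choroid plexus list sum of 2100, Lct at 58.8 and Slco1c1, a thyroid hormone carrier, at 27.7 were lowest, and Atp7a, a copper pump, was highest at 9.18. Much of that list sum is Atp1b1, which neurons also use: without it the poor libraries summed to 504 to 651. The ion and water transport group, which holds Atp1b1, was lowest among the poor libraries in high 6, at 1713. Gfap was 177 in basal 3 and Arc 72.6 in low 4.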

How the results depend on the processing

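The 137 genes called between rich and poor hippocampal libraries became 401 with no filter on low counts, 230 in DESeq2, 297 without infusion, and, in alternatives chosen after seeing the data, 59 within the middle and 91 within the highest tag range. With tag runs, neighbouring tag numbers, as a replicate block, 2 genes were called, and 1 choroid plexus member against 31. The replicate numbers are archive order and pair nothing. The deviations of same-run libraries correlated at -0.20 to 0.69 with a median of 0.31 over 18 pairs, against -0.65 to 0.49 with a median of -0.01 over 90 other pairs. Same-run libraries were thus more alike in the median, but not every pair exceeded 0.1. On that ground runs were not taken as pairs, so the main fit treats same-run libraries as independent and ignores this likeness. The block leaves 3 residual degrees of freedom. Leaving out 1 library gave 42 to 179 genes and 21 to 35 choroid plexus members, and 34 of the 137 genes, 20 of them choroid plexus members, were called in all 12 such fits. Ranking by Folr1 in place of Ttr gave 109, with high 1 in place of basal 5 in the poor group. Ranking by Kcnj13 made the same groups as Ttr, so its 136 is the main fit with Kcnj13 left out of the count.

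The 1762 genes of the hypothalamic slope became 3077 with tag range as a batch term, and 74 to 2829 with 1 library left out. Its 2 choroid plexus members became 1 with no filter and 4 with tag range, and 1 to 4 with 1 library left out. The accumbens slope gave 0 to 1 genes and 0 choroid plexus members with 1 library left out. The slope difference gave 0 genes with no filter, 485 with tag range as a batch term and 3 with log2(Ttr CPM + 0.1), and 1 to 4 with 1 library left out. Low minus basal gave 38 genes in DESeq2, and both insulin contrasts 0 with 1 library left out. With log2 Ttr as a term, Folr1 for low minus basal was -0.21, against 2.56 without it. Folr1 follows Ttr closely in these libraries, so that drop was built in. The cause was not tested for the other shifts.

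A library of 3450400 counts resolves little of a gene with few reads, so genes such as Kcnj13, Steap1 and Tmem72 are bounded by few counts in the poor group. Rich and poor differ in infusion and tag range, and both were chosen from Ttr.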

Other observations

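The 97 genes higher in the rich libraries that are on no list include some named after their values were seen. Dnah6, an axonemal dynein chain, was lowest at 8.40, median 18.2 and highest at 20.5 CPM in the rich libraries, against 0.527, 1.43 and 4.30 CPM in the poor libraries. Drc7, part of the dynein regulatory complex of cilia, was 8.89, 17.1 and 27.3 CPM in the rich libraries and 0.331, 1.28 and 2.59 CPM in the poor ones. Cfap65, a cilia- and flagella-associated protein, was 28.4, 38.9 and 49.3 CPM in the rich libraries and 4.14, 8.49 and 11.5 CPM in the poor ones. In all 3 the groups did not overlap. Lepr, the leptin receptor, was 3.17, 9.84 and 18.1 CPM in the rich libraries and 0.527, 1.17 and 1.77 CPM in the poor ones. Slc2a12, a glucose transporter, was 4.23, 17.3 and 35.8 CPM in the rich libraries and 0.443, 1.43 and 2.01 CPM in the poor ones. Bmp7, a growth factor, was 4.93, 12.0 and 19.5 CPM in the rich libraries and 0.586, 3.10 and 4.02 CPM in the poor ones. Vcam1, an adhesion molecule for leukocytes, was 32.1, 54.8 and 64.7 CPM in the rich libraries and 15.8, 21.5 and 31.9 CPM in the poor ones.

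Chrnb4, a nicotinic receptor subunit abundant in the medial habenula, also stood among the higher genes, with a ratio of pooled levels of 66.1 and a counting interval of 22.3 to 323 on 3 counts in the poor libraries. Its level in the rich libraries was lowest at 1.16, median 4.03 and highest at 15.9 CPM. Chrnb3, another subunit, whose hypothalamic slope on Ttr was called in 6 of 16 fits that left out 1 library, had a log2 fold change of 2.57 between rich and poor hippocampal libraries without a call.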
